A study of Mus musculus with 14 samples.

Results

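Cathepsins B, L and H and prosaposin were followed at the transcript level in liver from 7 wild type and 7 mthr-/- mice, through every oligonucleotide on the arrays whose name or symbol denotes Ctsb, Ctsl, Ctsh or Psap. These are 4 of the 270 mouse genes on the arrays, read by 5 of the 284 mouse oligonucleotides, since Ctsb has 2 (called oligo 1 and oligo 2, as in the files). All mice were C57BL/6 animals of 15 to 20 weeks on standard chow. The tissue is labelled liver, with primary hepatocytes as the cells, and the abbreviation mthr is not spelled out. Homozygous animals drank water with 2% (w/v) betaine from 5 weeks after weaning and the labels give none for wild type, which means that betaine goes with genotype and their parts cannot be told apart. There were 2 females and 5 males among the wild type animals and 4 females and 3 males among the mthr-/- animals. One spotted array in a single colour was used per animal, and each oligonucleotide has 4 spots on it.

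Cathepsins B, L and H are cysteine proteases of the lysosome, the acidic compartment in which cells break down proteins, lipids and organelles. Cathepsins B and L cut within protein chains, and cathepsin H removes amino acids from their N-terminal end. Psap encodes prosaposin, which lysosomal proteases cut into saposins, small proteins that help lysosomal hydrolases reach sphingolipids. Hepatocytes hold many lysosomes, and macrophages of the liver are rich in the same enzymes.

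The sample descriptions carry array codes of 4 kinds, called slide series A to D here; the labels do not say what the kinds stand for. Series A holds wild type 1 and mthr-/- 1 to 4, series B wild type 2 to 5 and mthr-/- 5 and 6, series C wild type 6 and 7, and series D mthr-/- 7. The summed background-subtracted intensity of the mouse oligonucleotides was 14443 to 82510 per array. It ran from 20991 to 82510 in series A, which overlaps the 14443 to 71270 of series B. Wild type 6 stood apart, with 70 oligonucleotides above its detection limit against 114 to 186 on the other arrays. Hepatocyte markers were bright: of the 10 on the list 6 are on the arrays, and their summed intensity ran from 1399 to 14253 in wild type and from 4068 to 33412 in mthr-/-. Of 14 macrophage and Kupffer cell markers, 2 are on the arrays, the cytokine genes Il1b and Tnf. Neither passed the filter on dim oligonucleotides, and their summed intensity was 0 to 4.75 in wild type and 0.75 to 6.5 in mthr-/-. The defining macrophage markers on the list were not measured, and fewer cells of a type cannot be told apart from less RNA per cell.

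The sequences of the spotted oligonucleotides were not used here. The reference table of promoter windows, 250 bases before to 50 after a transcript start, holds entries for 2 of the 4 genes, Psap and Ctsl. The window at the start of the Psap gene is shown because Psap gave the smallest p between slide series. It was searched on both strands for the E-box CACGTG and the GC box GGGCGG, which do not overlap each other here, and capitals mark the match (RefSeq, GRCm38.p6, chr10:60277378-60277677, plus strand).
Psap: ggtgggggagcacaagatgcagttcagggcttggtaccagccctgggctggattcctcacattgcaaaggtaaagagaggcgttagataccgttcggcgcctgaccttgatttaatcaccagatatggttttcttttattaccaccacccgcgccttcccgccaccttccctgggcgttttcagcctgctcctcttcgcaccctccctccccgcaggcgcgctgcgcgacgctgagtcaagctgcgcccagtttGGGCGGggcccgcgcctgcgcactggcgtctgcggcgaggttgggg
The window holds 1 GC box, a motif found in 35.7% of the 32851 windows in the table, and no E-box, which 7.15% of them hold. A second Psap window, at another start, holds neither. The Ctsl window, at a transcript start inside the annotated gene, holds 1 E-box at position -236 from that start and no GC box. This describes letters and says nothing of a factor.

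The members differed in how far they rose above background. Background-subtracted intensity is given in scanner units, and a spotted oligonucleotide's brightness also depends on its sequence, so the 4 genes are not ranked by abundance. Ctsl was above the detection limit on 14 of 14 arrays, with intensities from 73.5 to 234 and a median of 124. Ctsb oligo 2, Ctsh and Psap were each above it on 13 of 14 arrays, the exception being wild type 6 for all of them. Ctsb oligo 2 ran from 8.5 to 371 (median 142), Ctsh from 6.5 to 128 (median 43.6) and Psap from 1.33 to 205 (median 17.8). Psap was close to its limit on several arrays, for example 7.25 against 6.81 on wild type 7 and 1.33 against -0.21 on wild type 2. Ctsb oligo 1 ran from 0.75 to 22.3 (median 4.83) and was above the limit on 10 of 14 arrays. All 5 entered the tests, which took the 139 of 284 oligonucleotides above the limit on at least 7 arrays. The limit of an array was the mean plus 2 SD over the spots of 4 plant control oligonucleotides.

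The 2 oligonucleotides of cathepsin B were not positively correlated after quantile normalization, and the sign of their correlation depended on the scaling. From here on levels are log2 normalized intensities, made with an offset of 50 that draws dim values together, so their differences understate those of dim genes. Oligo 2 had a median of 7.56, with wild type 6 lowest at 7.01 and wild type 1 highest at 8.29. Oligo 1 had a median of 6.82, with mthr-/- 4 lowest at 6.79 and wild type 6 highest at 6.96. Wild type 6 was thus the lowest array for one and the highest for the other on this scale. Both oligonucleotides were under the detection limit there, with intensities of 8.5 for oligo 2 and 7.75 for oligo 1 against 9.81. Pearson's r between them over the 14 arrays was -0.55 (Spearman's rho -0.46; permutation test, adjusted p = 0.205 and 0.322). It was -0.57 without wild type 1 and mthr-/- 2, the arrays farthest from the median of oligo 2, and -0.69 within slide series B (n = 6). With reference gene centring r was 0.40, and without normalization 0.80. Without normalization the arrays kept their unequal brightness, with summed intensities of 14443 to 82510, and every member pair passed. The 0.80 is therefore not read as agreement between the 2 oligonucleotides. The SD of oligo 1 between animals of a genotype was 0.045 and that between its spots on an array 0.074, a ratio of 0.61. For oligo 2 the SDs were 0.36 and 0.14, a ratio of 2.53, against a median ratio of 1.40 over the 139 tested oligonucleotides. The ratio was 2.29 for Psap, 1.49 for Ctsh and 1.25 for Ctsl. The SD between animals is that of means over up to 4 spots and the SD between spots that of single spots. A ratio of 1 is therefore no dividing line. How much of the spread of oligo 1 between animals came from its spots was not tested.

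**Figure D1:**
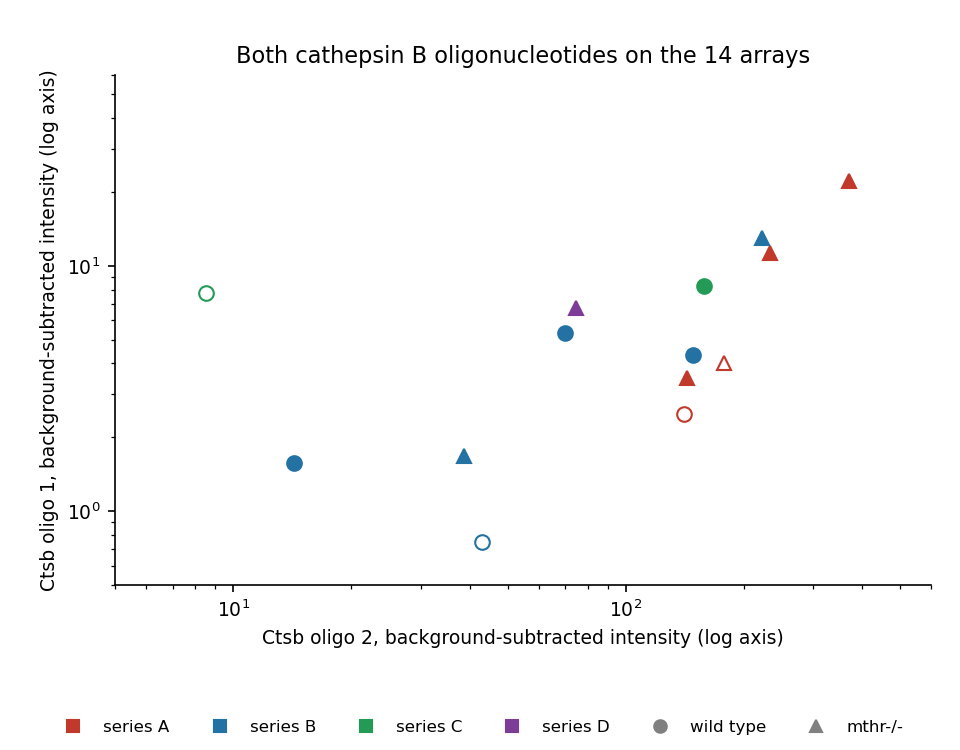
Background-subtracted intensity of Ctsb oligo 1 against Ctsb oligo 2, both on log axes, 1 point for each of the 14 arrays; colour gives the slide series, shape the genotype, and open symbols mark arrays where oligo 1 was not above its detection limit. Oligo 2 spans 8.5 to 371 while oligo 1 stays between 0.75 and 22.3, and 4 arrays have open symbols.

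The first comparison was mthr-/- against wild type, the comparison the study's design names. Ctsl was lower and Ctsb oligo 2, Ctsh and Psap were higher on average in mthr-/-, and none of these differences passed the test. Ctsl, the cathepsin with the smallest p of the members, was at 7.45 at the lowest, 7.87 at the median and 8.22 at the highest in wild type, and at 7.27, 7.55 and 7.93 in mthr-/-. The groups overlapped, and 1 of 7 mthr-/- arrays, mthr-/- 5, lay above the wild type mean. The wild type mean was 7.87 ± 0.27 and the mthr-/- mean 7.60 ± 0.23 (SD, n = 7 each). They differed by -0.27 (SE 0.13), or 0.83-fold. Limma with Benjamini-Hochberg adjustment over 139 oligonucleotides gave an adjusted p of 0.537, and the two-sided exact permutation test of this value alone gave p = 0.063. The difference was -0.45 with median centring and -0.13 with centring on reference genes, and it turned to 0.39 without normalization, where the median over all tested oligonucleotides was 0.82.

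Ctsb oligo 2 was at 7.01 at the lowest, 7.43 at the median and 8.29 at the highest in wild type, and at 7.46, 7.60 and 8.24 in mthr-/-. The highest array was wild type 1 and the lowest wild type 6, so the wild type range enclosed that of mthr-/-. The difference was 0.19 (SE 0.18, limma adjusted p = 0.682), and that of Ctsb oligo 1 was -0.013 (SE 0.031, limma adjusted p = 0.886). Ctsh was at 6.94, 7.07 and 7.31 in wild type and at 6.99, 7.07 and 7.42 in mthr-/-, with medians that differed less than the spread within either group. Its difference was 0.094 (SE 0.076, limma adjusted p = 0.654).

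Psap was at 6.81 at the lowest, 6.92 at the median and 7.61 at the highest in wild type, and at 6.85, 7.18 and 7.23 in mthr-/-. Wild type 1 was the highest array of all, above every mthr-/- array, and the other 6 wild type arrays lay at or below 6.92. The difference in means was 0.11 (SE 0.12, limma adjusted p = 0.717). Without wild type 1 it was 0.21 (limma adjusted p = 0.167). Over all tested oligonucleotides limma called 0 of 139 (0%), 12 had an unadjusted p under 0.05, and the smallest adjusted p was 0.531. Of the 5 member oligonucleotides 0 passed and 0 had an unadjusted p under 0.05, and 3 were higher and 2 lower in mthr-/-, beside 69 higher and 70 lower of the 139.

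**Figure D2:**
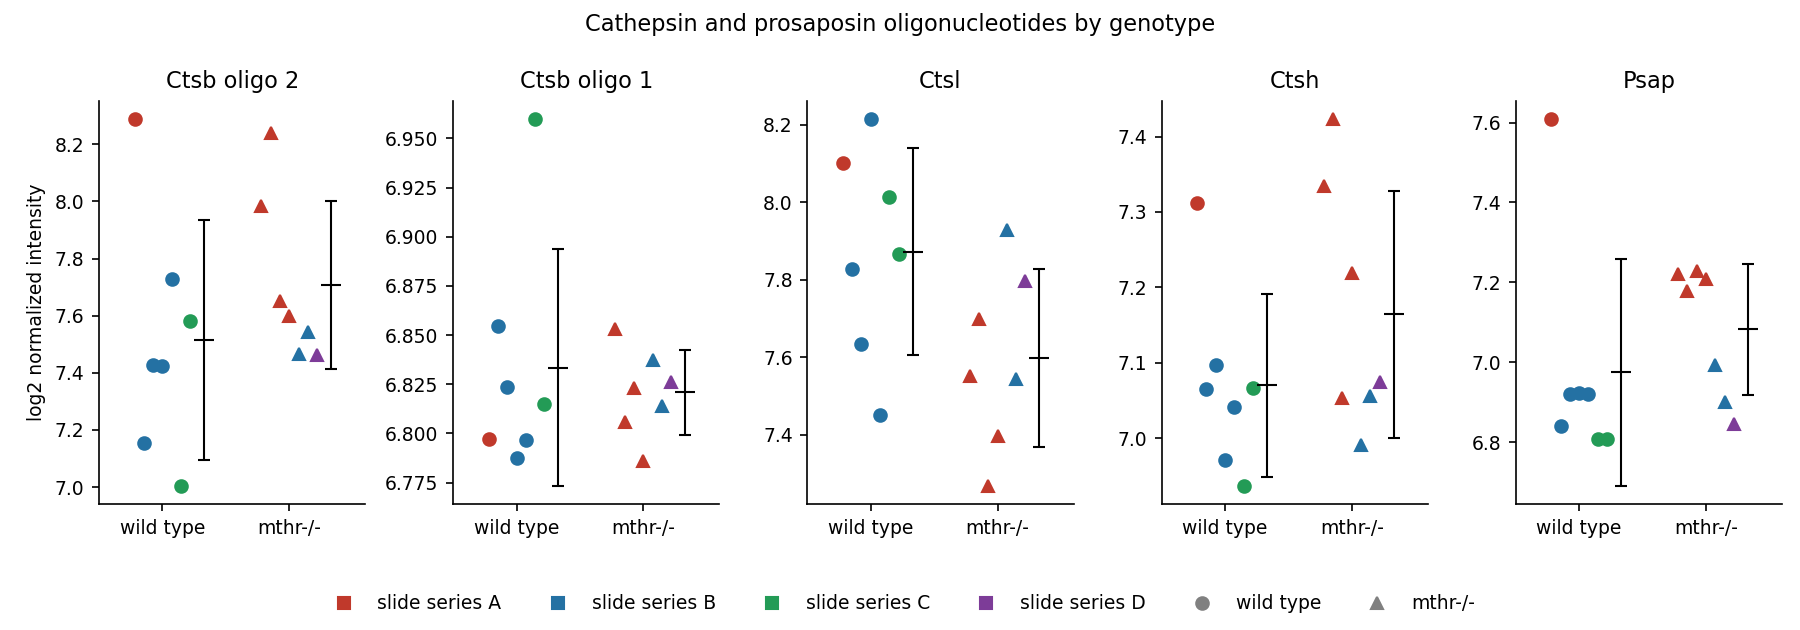
Log2 normalized intensity of the 5 member oligonucleotides by genotype, 1 point per array (n = 7 per genotype), coloured by slide series; the horizontal mark and bar are the mean and SD, and each panel has its own vertical range. The genotypes overlap in each panel, and for Psap the 4 mthr-/- arrays of series A lie between 7.18 and 7.23 while the 6 wild type arrays outside series A lie at or below 6.92.

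Slide series was unequal over the genotypes, and all of these differences but that of Ctsl changed sign with it in the model. That of Ctsb oligo 1 was small in both fits. Series C and D hold 1 genotype each, so blocking on slide series leaves series A and B to set the genotype difference. In that fit the mthr-/- minus wild type difference was -0.11 (SE 0.18) for Ctsb oligo 2, -0.033 (SE 0.072) for Ctsh and -0.12 (SE 0.076) for Psap, each of opposite sign to the fit without it. Ctsl was at -0.26 (SE 0.18), and the limma adjusted p was 0.877 for all 4. Within series A, where wild type is the single array wild type 1, the differences were -0.42 for Ctsb oligo 2, -0.62 for Ctsl, -0.055 for Ctsh and -0.40 for Psap. Within series B (4 wild type and 2 mthr-/- arrays) they were 0.071, -0.045, -0.020 and 0.047 in the same order. Ctsb oligo 2 and Psap thus kept their positive sign within series B and were negative within series A, against wild type 1 alone. Within series B the genotypes differed by less than the SD between the wild type arrays for Ctsb oligo 2, Ctsl and Ctsh, which was 0.23, 0.33 and 0.053. For Psap that SD was 0.040, slightly under the difference of 0.047, and the 2 genotypes overlapped.

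Psap differed between slide series. In series A it was at 7.61 on wild type 1 and at 7.22, 7.18, 7.23 and 7.21 on mthr-/- 1 to 4. In series B it was at 6.84 at the lowest, 6.92 at the median and 6.99 at the highest, in series C at 6.81 on both arrays, and in series D at 6.85. Every array of series A lay above every other array, in both genotypes. In background-subtracted intensity the same arrays read 75.25 on wild type 1 and 64.7, 32.5, 205 and 85.5 on mthr-/- 1 to 4, against 1.33 to 39.8 in series B, 2 and 7.25 in series C and 8.67 in series D. Here the lowest of series A, 32.5 on mthr-/- 2, lay below the highest of series B, 39.8 on mthr-/- 6, an array with a summed intensity of 71270 against 20991. With genotype in the model, series A exceeded series B by 0.43 (SE 0.076, limma adjusted p = 0.0146), and 5 of 5 series A arrays lay above all 6 of series B. Series was called for 10 of the 139 tested oligonucleotides (7.19%), 8 of them higher in A (5.76%), and 32 had an unadjusted p under 0.05. Of the 5 member oligonucleotides 1, Psap, passed.

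The order of Psap by series and genotype was wild type in A (7.61, 1 array), mthr-/- in A (7.21 ± 0.023, SD, n = 4), mthr-/- in B (6.95 ± 0.065, SD, n = 2), wild type in B (6.90 ± 0.040, SD, n = 4), mthr-/- in D (6.85, 1 array) and wild type in C (6.81 on both arrays). The 2 genotypes overlapped in series B, and no array of series A lay within the range of B, C or D. Wild type 1 weighed on the size of the series difference: without it the value was 0.26 (limma adjusted p = 0.0408). The difference kept its sign but did not pass with other scalings of the arrays, at 0.39 with cyclic loess (limma adjusted p = 0.0768), 0.34 with median centring (0.493) and 0.34 with reference gene centring (0.963).

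The 2 other bright members with higher levels in series A did not pass the test. Ctsb oligo 2 was at 8.29 on wild type 1 and at 7.98, 8.24, 7.65 and 7.60 on mthr-/- 1 to 4, against 7.15 at the lowest, 7.45 at the median and 7.73 at the highest in series B. Wild type 5, the highest of series B, lay above mthr-/- 3 and 4 of series A. The series difference was 0.55 (SE 0.18, limma adjusted p = 0.0896). Ctsh was at 7.31 on wild type 1 and at 7.33, 7.42, 7.05 and 7.22 on mthr-/- 1 to 4, against 6.97, 7.05 and 7.10 in series B. Only mthr-/- 3 of series A fell within the range of series B. Its difference was 0.25 (SE 0.072, limma adjusted p = 0.0641). Without mthr-/- 3, the array that fell within the range of series B, it was 0.29 and passed (limma adjusted p = 0.0170). The Ctsh difference did not pass with any other single array left out. Ctsl was at 8.10 on wild type 1 and at 7.55, 7.70, 7.27 and 7.40 on mthr-/- 1 to 4, against 7.45, 7.73 and 8.22 in series B, so the series overlapped. Its series difference was -0.041 (SE 0.18, limma adjusted p = 0.894), and that of Ctsb oligo 1 was -0.013 (SE 0.039, limma adjusted p = 0.846). Hepatocyte markers, of which 6 were tested, had a median series difference of 0.23, with 4 of 6 higher in series A and 0 called. Their summed intensity was 6950 to 33412 in series A and 4068 to 27648 in series B. That of Il1b and Tnf was 0 to 5.25 in A and 0 to 6.5 in B, and the part of other cells in the series difference was not tested.

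**Figure D3:**
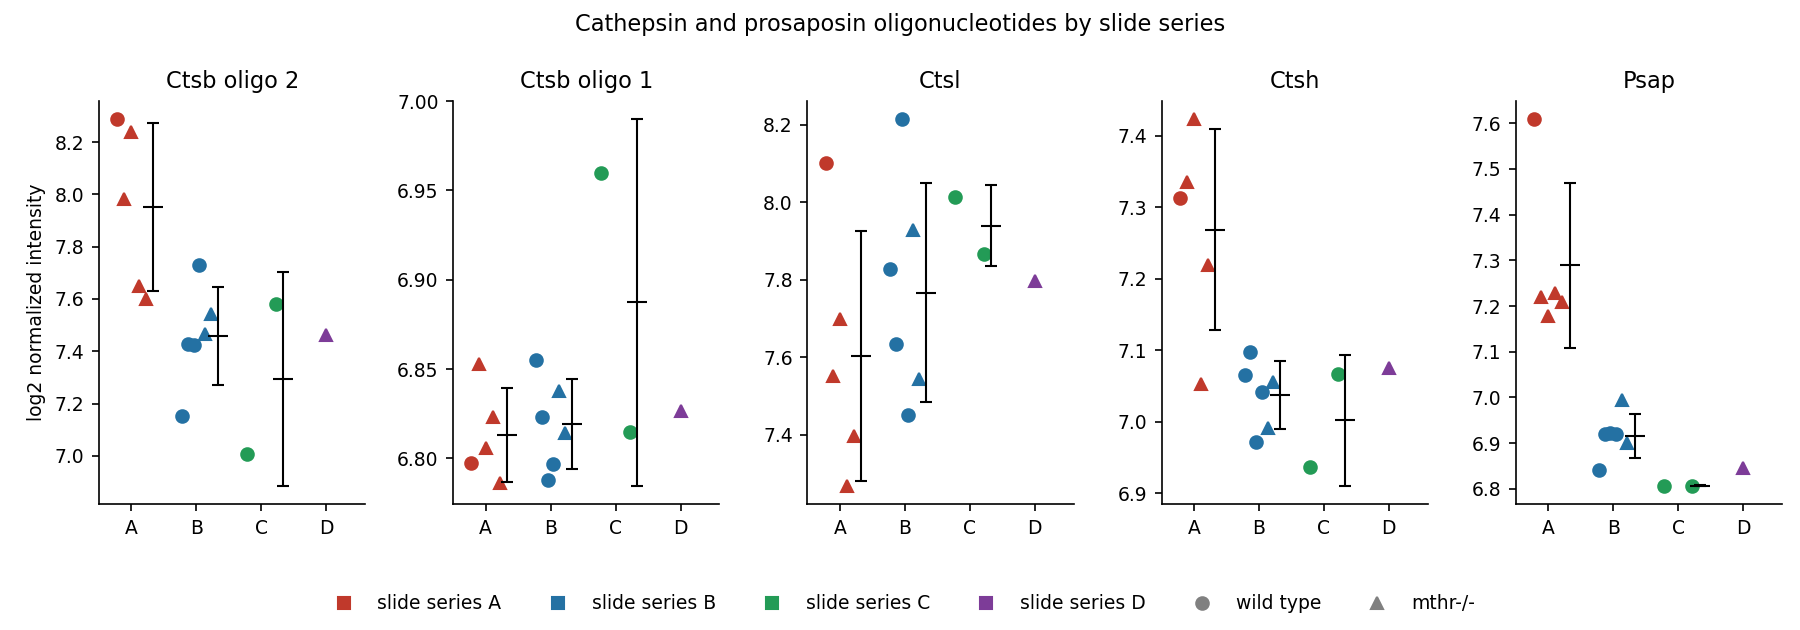
Log2 normalized intensity of the 5 member oligonucleotides by slide series A (5 arrays), B (6), C (2) and D (1), with circles for wild type and triangles for mthr-/-; the horizontal mark and bar are the mean and SD where a series has more than 1 array, and each panel has its own vertical range. The 5 series A arrays of Psap, 7.18 to 7.61, lie above all others, while Ctsl overlaps between series.

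A ratio of 2 genes on the same array does not depend on how arrays are scaled to each other. The ratios below were chosen after the values were seen, have no test, and show only that genes changed unequally. Psap intensity over Ctsl intensity was 0.62 on wild type 1 and 0.46, 0.39, 0.93 and 0.67 on mthr-/- 1 to 4. It was 0.018 at the lowest, 0.11 at the median and 0.22 at the highest in series B, 0.021 and 0.031 in series C and 0.063 in series D. The lowest array of series A was thus above the highest of the other 9. Ctsh over Ctsl ran from 0.390 to 0.682 in series A and from 0.0679 to 0.388 on the other 9 arrays, also without overlap, though wild type 1 of series A and wild type 5 of series B were only 0.390 and 0.388. Ctsb oligo 2 over Ctsl ran from 1.17 to 1.72 in series A and from 0.0888 to 1.43 on the other arrays, where wild type 5 lay within the range of series A. On wild type 6 Ctsb oligo 2, Ctsh and Psap were all under the detection limit, so its ratios, 0.0888, 0.0679 and 0.021, are of signals not above background. Psap was close to the limit on wild type 2 and wild type 7, at 1.33 against -0.21 and 7.25 against 6.81. Their ratios of Psap over Ctsl, 0.018 and 0.031, thus rest on faint signals. Outside series A the genotypes overlapped in all 3 ratios: Psap over Ctsl, for example, ran from 0.018 to 0.22 on 6 wild type arrays and from 0.063 to 0.18 on 3 mthr-/- arrays.

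**Figure D4:**
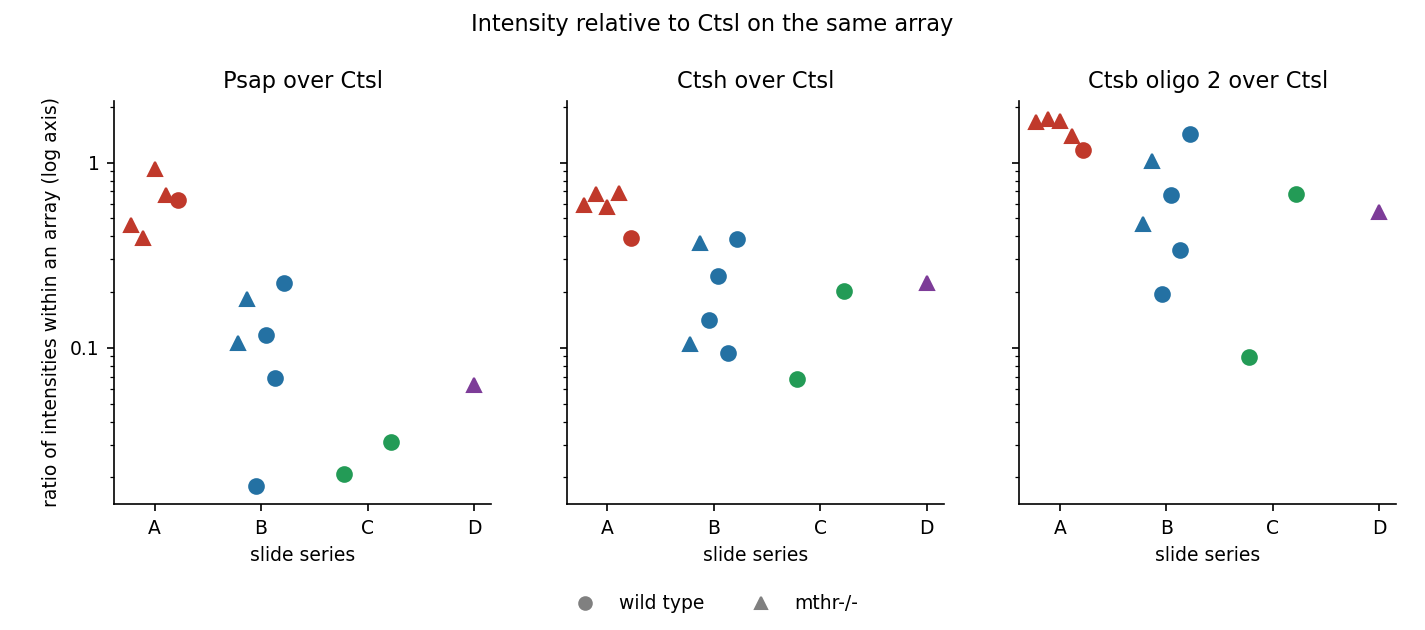
Intensity of Psap, Ctsh and Ctsb oligo 2 divided by the intensity of Ctsl on the same array (log axis), by slide series, 1 point per array, with circles for wild type and triangles for mthr-/-. Psap over Ctsl is 0.39 to 0.93 in series A and 0.018 to 0.22 on the other 9 arrays.

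Across animals, Ctsb oligo 2 was correlated with Ctsh and with Psap by Pearson's r, and Ctsh with Psap did not pass. Over all 14 arrays r was 0.85 between Ctsb oligo 2 and Ctsh (Spearman's rho 0.62; permutation test, p = 0.00019 and 0.0202, adjusted p = 0.0214 and 0.156). Between Ctsb oligo 2 and Psap r was 0.79 (rho 0.68; permutation test, p = 0.00035 and 0.00967, adjusted p = 0.0245 and 0.116). Between Ctsh and Psap r was 0.71 (rho 0.42; permutation test, p = 0.00503 and 0.131, adjusted p = 0.0701 and 0.342). So 2 of the 10 member pairs passed by Pearson's r and 0 by Spearman's rho. The count by Pearson's r was 0 without wild type 6 or mthr-/- 2, 1 without wild type 1, wild type 2 or mthr-/- 1, and at most 3 with any 1 array left out. The adjustment was over the 680 pairs of a member oligonucleotide with any other tested one, of which 20 passed by Pearson's r (2.94%) and 10 by Spearman's rho (1.47%), and the median r over all 9591 pairs of tested oligonucleotides was -0.012. Without the 2 arrays farthest from the median of the first member, wild type 1 and mthr-/- 2, r was 0.69 for Ctsb oligo 2 with Ctsh and 0.65 for Ctsb oligo 2 with Psap. For Ctsh with Psap it was 0.78 without mthr-/- 1 and 2.

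The relations were weaker or of opposite sign within slide series B. Within series B (n = 6) r was -0.13 for Ctsb oligo 2 with Ctsh, 0.50 for Ctsb oligo 2 with Psap and -0.53 for Ctsh with Psap. No correlation was taken over fewer than 6 arrays, so series A, C and D, with 5, 2 and 1, have no value, and the value of series B need not hold in series A. After the mean of each slide series was subtracted, r over 14 arrays was 0.64, 0.44 and 0.025 in the same order, and 0 of 10 member pairs passed. Within wild type (n = 7) r was 0.85, 0.85 and 0.88, and within mthr-/- (n = 7) 0.92, 0.61 and 0.59. Wild type 1, the single wild type array of series A, was the highest wild type array for Ctsb oligo 2, Ctsh and Psap. The mthr-/- arrays include 4 of series A. The values within a genotype thus also span slide series and do not show a relation apart from it. The scaling mattered too: r between Ctsb oligo 2 and Psap was 0.22 with median centring and 0.65 with cyclic loess, and neither passed. Ctsl had r from -0.20 to 0.21 with the other 4 member oligonucleotides over 14 arrays, and none of these pairs passed. Within series B its r was -0.73 with Ctsh, -0.50 with Ctsb oligo 2 and 0.18 with Psap, and within mthr-/- (n = 7) it was -0.61 with Psap.

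**Figure D5:**
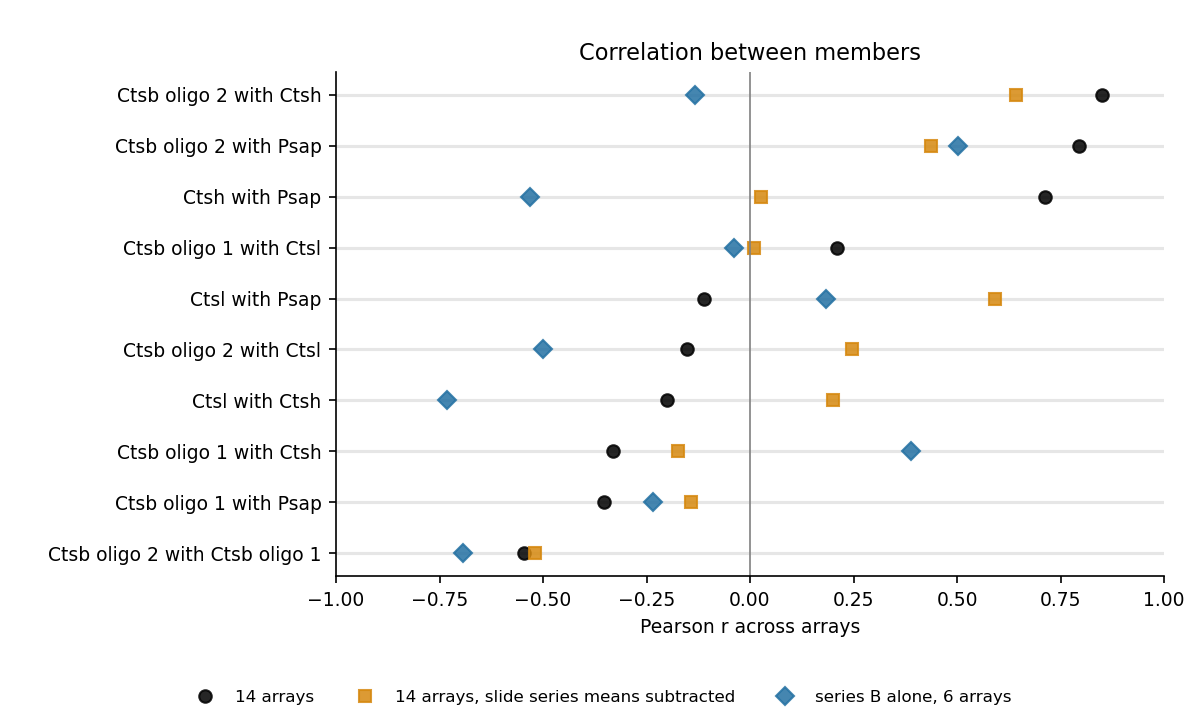
Pearson's r for the 10 pairs of member oligonucleotides over the 14 arrays (black circles), over the 14 arrays after the mean of each slide series was subtracted (orange squares) and within series B alone (blue diamonds, 6 arrays). The 3 pairs among Ctsb oligo 2, Ctsh and Psap are highest over 14 arrays, at 0.71 to 0.85, and lie between -0.53 and 0.50 within series B.

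For Ctsb oligo 2 the tested oligonucleotides of other genes with the highest r over the 14 arrays were Ctsh (r 0.85), the ribosomal protein gene Rps2 (0.85) and Psap (0.79). For Ctsh they were Ctsb oligo 2, Rps2 (0.85) and Cdo1 (0.80), which oxidises cysteine. Within series B r with Rps2 was -0.34 for Ctsb oligo 2 and -0.42 for Ctsh, and Ctsh with Cdo1 had -0.13. With slide series means subtracted these were 0.61, 0.48 and 0.53 in the same order. Rps2 and Cdo1 were themselves higher in series A than in B, by 0.57 and 0.31. For Psap the oligonucleotides with the highest r were Cbs (0.88), which joins homocysteine and serine, the amino acid transporter gene Slc38a4 (0.87) and Bhmt (0.83), which methylates homocysteine with betaine. With slide series means subtracted these were 0.50, 0.47 and 0.36, and within series B 0.023, -0.21 and -0.41. These oligonucleotides of Cbs, Slc38a4 and Bhmt were themselves higher in series A than in B, by 0.51, 0.35 and 1.53. Cbs has 3 tested oligonucleotides, and the other two differed by 0.26 (limma adjusted p = 0.109) and -0.024 (limma adjusted p = 0.883). For Ctsl the most alike was Abcc2, which pumps conjugated bilirubin into bile, with r 0.74 (rho 0.82; permutation test, adjusted p = 0.0419 for r), 0.66 without the 2 arrays farthest from the median of Ctsl, mthr-/- 3 and wild type 4, 0.67 with slide series means subtracted and 0.67 within series B. It was followed by 1 of the 2 tested oligonucleotides of Csad (0.50), whose other one had r 0.30, and by Epo (0.47). The correlations of 0.50 and 0.47 did not pass (permutation test, adjusted p = 0.224 and 0.252). Abcc2 was dim, with means of 6.93 in wild type and 6.82 in mthr-/-, beside 6.83 and 6.82 for Ctsb oligo 1. Like Ctsl it was lower on average in mthr-/-, with a difference of -0.11 (SE 0.045, limma adjusted p = 0.531). The correlation of Ctsl with Abcc2 was not taken within each genotype.

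Sex made no difference that could be detected in the members. Psap was at 6.85 at the lowest, 6.92 at the median and 7.22 at the highest in 6 females and at 6.81, 6.96 and 7.61 in 8 males, and the sexes overlapped. The female minus male differences, with genotype in the model, ran from -0.13 for Ctsb oligo 2 (SE 0.20) to -0.00032 for Ctsl (SE 0.14). Limma called 0 of 139 oligonucleotides for sex (0%), with 3 at an unadjusted p under 0.05, and 0 of 139 for the genotype by sex term (0%), with 2. The largest genotype by sex term among the members was -0.13 (SE 0.29) for Ctsl, and the limma adjusted p of every member was 0.9997 for sex and 0.996 for the term. With 2 wild type females, these comparisons have little precision.

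Other genes of the lysosome were scarce on the arrays. Of a list of 46 genes drawn up as further lysosomal and protease genes, 2 are present. They are Ctsc, cathepsin C, an activator of granule proteases, and Ftl1, the ferritin light chain. Ftl1 is on the list but encodes neither a protease nor a lysosomal enzyme. Ctsc was above the limit on 11 of 14 arrays and differed by 0.011 (SE 0.039) between mthr-/- and wild type, and Ftl1 by 0.053 (SE 0.23), with 0 of 2 called. Between slide series A and B they differed by 0.094 and -0.42, with 0 of 2 called. Of a list of 23 protease inhibitor, autophagy and proteasome genes 3 are present and tested, with 0 called for genotype or series. The arrays hold other protease inhibitors that are not on this list. Between the genotypes, the ubiquitin gene Ubb differed by 0.086 (SE 0.21) and Serpina3n, a protease inhibitor, by 0.23 (SE 0.12).

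The authors' deposited table of medians lists 103 oligonucleotides, with Ctsb oligo 2, Ctsl, Ctsh and Psap among them. It gives a Psap median of 33.1 in mthr-/- over 6.02 in wild type, a ratio of 5.49 and the third highest of the 103. The ratios in the authors' deposited table are 2.26 for Ctsh, 2.03 for Ctsb oligo 2 and 0.639 for Ctsl, the last at rank 98. These medians take no account of slide series, which was unequal over the genotypes. The authors' deposited value table of single arrays has no Psap value for wild type 1, 1 of 21 empty cells of 1442. In that table Psap was at 32.0 to 49.5 on mthr-/- 1 to 4, all of series A. Outside series A it was at 11.95, 12.2 and 5.14 on mthr-/- 5 to 7 and at 2.08 to 8.93 on wild type 2 to 7. The array file of wild type 1 holds a scaled Psap mean of 66.75, the highest Psap reading of the 14 arrays on that scale. With it, the medians of the scaled array values were 7.33 in wild type and 32 in mthr-/- (n = 7 each). For a test, an offset of 50 was added to the authors' deposited single-array values, which were then taken to log2 and quantile normalized. On that scale, where limma leaves wild type 1 out for Psap, the difference was 0.30 (SE 0.12, limma adjusted p = 0.436). The offset exceeds every Psap value in that table, 49.5 at the highest. It draws these values together, so 0.30 is not the log2 of a ratio of the authors' values.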

How the data were processed

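RNA was copied into cDNA with oligo-dT primers and 1 fluorescent nucleotide, per the labels' protocols. The deposited array files hold spot and local background intensity on a linear scale, with scaled columns, per the file headers; the scanner and image software are not named there or in the labels. The authors' deposited table of medians gives the log10 ratio of mthr-/- over wild type. Spots were corrected with normexp in limma 3.58.1 (R 4.3.3) with an offset of 50, taken to log2, quantile normalized and averaged per oligonucleotide. Spots blanked by the authors were left out, as was block 3 of mthr-/- 1, which repeats block 2. Tests took 139 of 284 oligonucleotides. Genotype was fitted on all 14 arrays without covariates, slide series and sex with genotype in the model, all with limma (lmFit, eBayes, two-sided), Benjamini-Hochberg adjustment over all tested oligonucleotides and a threshold of 0.05. Correlations used two-sided permutation tests with 100000 resamples. The fits were tested on simulated data. The number of arrays limits the precision. The labels number the animals, and with 1 array per animal the p-values measure the spread between arrays. Spread between animals, arrays and slide series is not separated there, except where slide series is in the model. The permutations for the correlations moved values freely across slide series.

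The members and gene lists were chosen with earlier results of these data known. Beside the members, the text names the 3 oligonucleotides of other genes with the highest r to the brightest oligonucleotide of each member and the list genes on the arrays; the result of 1 list gene is not reported here. Genes were named through a RefSeq table by accession for 191 oligonucleotides, by symbol for 52 (Psap among them), by synonym for 17 and by name for 10; 14 kept the file's name. Alternatives covered background, scaling, filter, blanked spots, spot summary, covariates and each array left out.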

Additional observations from a re-analysis of the deposited data

Results flagged for a closer look

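Within each genotype the highest and lowest array of every member oligonucleotide was compared with its nearest neighbour, by a rule that chance meets in about 1 in 20 groups. Of 10 groups, 3 had an array past the critical value of 0.568 for 7 samples, all in wild type. Psap on wild type 1 was at 7.61, and the gap to the next wild type array, 6.92 on wild type 4, was 0.857 of the group's range. Ctsh on wild type 1 was at 7.31, with a gap of 0.574 of the range to 7.10 on wild type 3. Wild type 1 is the single wild type array of slide series A. Ctsb oligo 1 on wild type 6 was at 6.96, with a gap of 0.610 of the range to 6.85 on wild type 2. That array was the one with the fewest oligonucleotides above the limit, 70, and its Ctsb oligo 1 intensity of 7.75 was under its limit of 9.81.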

How the results depend on the processing

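The genotype differences of Ctsl, Ctsb oligo 2, Ctsh and Psap stayed uncalled under every alternative, and 0 of the tested oligonucleotides were called for genotype except 1 without normalization. With slide series as a block the genotype difference was -0.11 for Ctsb oligo 2, 0.014 for Ctsb oligo 1, -0.033 for Ctsh and -0.12 for Psap. That of Ctsb oligo 1 was 0.86 without normalization, 0.011 with median centring, 0.33 with reference gene centring, 0.00070 with the median of spots and 0.0053 without wild type 1 and 6. That of Ctsl was 0.39 without normalization. The median genotype difference over all tested oligonucleotides was 0.82 without normalization and 0.30 with reference gene centring.

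With 1 array left out the genotype difference ran from -0.020 to 0.0084 for Ctsb oligo 1, from 0.10 to 0.32 for Ctsb oligo 2, from -0.35 to -0.22 for Ctsl, from 0.051 to 0.13 for Ctsh and from 0.079 to 0.21 for Psap, with 0 calls.

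The series difference of Psap was called in the 14 fits with 1 array left out, at 0.26 to 0.51. It was not called without normalization (0.49), with median centring (0.34), reference gene centring (0.34) or cyclic loess (0.39), and the cause was not tested. That of Ctsh was called with genotype left out of the model (0.23) and without mthr-/- 3, in a range of 0.21 to 0.29. That of Ctsl was 0.17 without normalization, 0.024 with median centring and 0.021 with reference gene centring, and ran from -0.26 to 0.13 with 1 array left out. That of Ctsb oligo 1 was 0.026 without normalization. The number of oligonucleotides called for series was 0 without normalization, 0 with median or reference gene centring, 1 with cyclic loess, 16 with genotype left out and 0 of the 54 above background on all arrays. With 1 array left out it ran from 1 (wild type 1 or mthr-/- 5) to 15 (mthr-/- 1), and was 5 without wild type 2 or 3.

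The number of member pairs whose r passed was 0 with median centring, cyclic loess, blanked spots kept, slide series means subtracted or series B alone, 5 with reference gene centring and 10 without normalization. It ran from 0 (without wild type 6 or mthr-/- 2) to 3 with 1 array left out, and was 1 without wild type 1, wild type 2 or mthr-/- 1. Without normalization r was 0.80 for Ctsb oligo 2 with oligo 1, 0.83 for Ctsb oligo 2 with Ctsl, 0.94 and 0.93 for Ctsb oligo 1 with Ctsh and Psap, and 0.86 and 0.80 for Ctsl with Ctsh and Psap. With reference gene centring the same pairs had 0.40, 0.063, 0.83, 0.84, 0.29 and 0.32. With median centring r was 0.090 for Ctsb oligo 2 with Ctsl, and -0.36 and 0.22 for Ctsb oligo 1 with Ctsl and Psap. With slide series means subtracted it was 0.25, 0.20 and 0.59 for Ctsl with Ctsb oligo 2, Ctsh and Psap. Within series B it was -0.13 for Ctsb oligo 2 with Ctsh, -0.039 and 0.39 for Ctsb oligo 1 with Ctsl and Ctsh, and 0.18 and -0.53 for Psap with Ctsl and Ctsh. It was 0.016 for Ctsl with Psap with genotype means subtracted, and -0.045 for Ctsb oligo 1 with Ctsl with blanked spots kept. With 1 array left out these last 2 pairs ran from -0.61 to 0.012 and from -0.087 to 0.40.

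No sex difference or genotype by sex term of a member passed in any alternative, and several near 0 changed sign. The sex difference of Ctsl was 0.0040 with an offset of 0, 0.14 without normalization and 0.098 with median centring. With 1 array left out it ran from -0.11 to 0.080, and that of Ctsh from -0.059 to 0.046. Without normalization the term was 0.35 for Ctsb oligo 2, 0.31 for Ctsl and 0.26 for Psap, and with median centring 0.078, -0.12 and 0.040 for Ctsb oligo 2, Ctsb oligo 1 and Ctsl. With 1 array left out it ran from -0.20 to 0.21 for Ctsb oligo 2, from -0.42 to 0.16 for Ctsl, from -0.016 to 0.20 for Ctsh and from -0.17 to 0.053 for Psap.

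Animals of the 2 genotypes share only their numbers: same-numbered arrays had correlations of -0.25 to 0.36 in their deviations, and for 0 of 7 numbers was the best match its own. With the replicate number as a block the genotype difference of Psap stayed at 0.11 and 0 oligonucleotides were called, as without it. The filter to oligonucleotides above background on all arrays leaves only Ctsl of the members, the authors' value table has no Ctsb oligo 1, and the brightest oligonucleotide per gene drops it, so these gave no values there. Ctsb oligo 1 lay at or under the detection limit on 4 of 14 arrays, and Psap, Ctsh and Ctsb oligo 2 on 1, which limits what could be detected there.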

Other observations

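Spots that the authors left blank in their scaled columns included 6 spots of the members, and some stood far from the kept spots of the same array. A Psap spot on wild type 3 read 266 where the kept spots read 8 to 18. A Ctsh spot on wild type 2 read 43.2 beside 9 to 11, and Ctsb oligo 1 spots on wild type 5 and mthr-/- 6 read 79 and 41 beside 2 to 7 and 12 to 15. With these spots kept, the Psap difference between slide series A and B was 0.39 (limma adjusted p = 0.0367).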
